A study of Mus musculus with 32 samples.

Results

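AE17 tumors growing in the pleural cavity were compared with AE17 tumors growing under the skin, using the 16 tumors of this mesothelioma line among the 32 tumors of the series, which also holds tumors of a second line. AE17 is a murine mesothelioma cell line, here inoculated into untreated female C57BL/6 mice, the strain it comes from. The 8 intrapleural (IPL) tumors came from cells injected into the pleural space and the 8 subcutaneous (SC) tumors from the same number of cells injected into the flank, and both were collected on day 10. Polyadenylated RNA of whole tumors was sequenced, so each value mixes malignant cells with host stroma, vessels, leukocytes and any adjoining tissue taken with the tumor, and fewer cells of a type cannot be told apart from less RNA per cell. Each tumor gave between 16013042 and 18161128 counts, and 3 counts corresponded to between 0.167 and 0.186 CPM (counts per megacount of library size, with TMM scaling).

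Sites differed in sequencing lane as well as in place. All 8 SC tumors and IPL tumors 6, 7 and 8 were run in lane 1, whereas IPL tumors 1 to 5 were run in lane 2, so for those 5 tumors lane and site cannot be told apart. A difference within lane 1, between 3 IPL and 8 SC tumors, is therefore given beside the pooled difference of the genes described in most detail, and the direction in lane 1 was checked for every called gene. With lane as a term in the model, which leaves the site effect to the same 3 IPL tumors, 1 gene passed an adjusted p of 0.05, and in lane 1 alone 14 of the genes tested there passed, 6 of them among the calls from all tumors.

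Some tumors stood apart within their site. The summed level of 5 heart muscle markers was 152 CPM in IPL 5 against 1.90 to 7.21 CPM in the other tumors. Adipocyte markers summed to 313 CPM in IPL 5 and to at most 24.3 CPM elsewhere. Plasma cell markers summed to 596 CPM in IPL 5 and 644 CPM in IPL 8, and to at most 20.9 CPM in the other tumors. Skeletal muscle markers overlapped fully, with medians of 367 CPM in IPL and 381 CPM in SC tumors. Macrophage markers, 3 with a row, ranged from 998 to 1258 CPM in IPL and from 801 to 1374 CPM in SC tumors, endothelial markers from 120.2 to 219.9 CPM and from 114 to 158 CPM, and neutrophil markers from 25.8 to 53.9 CPM and from 16.7 to 58.1 CPM. T cell markers ranged from 30.9 to 81.6 CPM in IPL and from 8.89 to 95.6 CPM in SC tumors. Epidermal, lung epithelial and Schwann cell markers were low in both, at no more than 23.8 CPM summed. Epidermal markers summed to 14.5 CPM in SC 5 and 23.8 CPM in SC 6, and to at most 5.01 CPM in the other tumors. In the longer lists for lung and nerve, 2 of 7 lung epithelial genes were lower in IPL tumors (28.6%) and 1 of 7 Schwann cell and myelin genes was lower (14.3%). The lung genes were Hopx (log2 difference -0.60 ± 0.14, edgeR adjusted p = 0.0272, called in 11 of 16 fits with 1 tumor left out) and Cyp2f2 (-1.69 ± 0.44, adjusted p = 0.0371, called in 5 of 16 fits). The Schwann cell gene was Egr2, also an immediate early gene of many cells, at 9.93 to 14.9 CPM in IPL and 15.2 to 20.5 CPM in SC tumors without overlap (-0.51 ± 0.09, adjusted p = 0.00761).

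The pleural cavity is a closed space lined by a sheet of mesothelial cells over a thin layer of connective tissue, drained by lymphatics and bordered by lung, heart, chest wall and diaphragm. The subcutaneous space is loose connective tissue and fat below the dermis, populated by fibroblasts that keep a positional transcription factor code and by resident mast cells, macrophages and dendritic cells. A tumor placed in either meets a different set of neighbors, and whole-tumor RNA records both those neighbors and the state of the malignant cells.

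Across 14668 genes that passed the filter, 840 were called between the sites by edgeR's quasi-likelihood test at an adjusted p of 0.05, which is 5.73% of the genes tested. In IPL tumors 381 genes were higher (2.60%) and 459 were lower (3.13%). The median log2 difference (IPL minus SC) was 0.58 among higher and -0.74 among lower genes. At least a 2-fold difference was found in 88 of the higher and 158 of the lower genes, and at least a 4-fold difference in 17 and 38. In 81 called genes the sites did not overlap in any tumor, and these were 0.552% of all genes tested. All 840 differences kept their direction in lane 1, where 759 had an unadjusted p under 0.05, although those tumors are part of the pooled comparison. With tissue marker scores as covariates 0 genes were called by edgeR, 1086 had an unadjusted p under 0.05, and all 840 differences kept their direction. Protein-coding genes made up 749 of the calls.

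**Figure D1:**
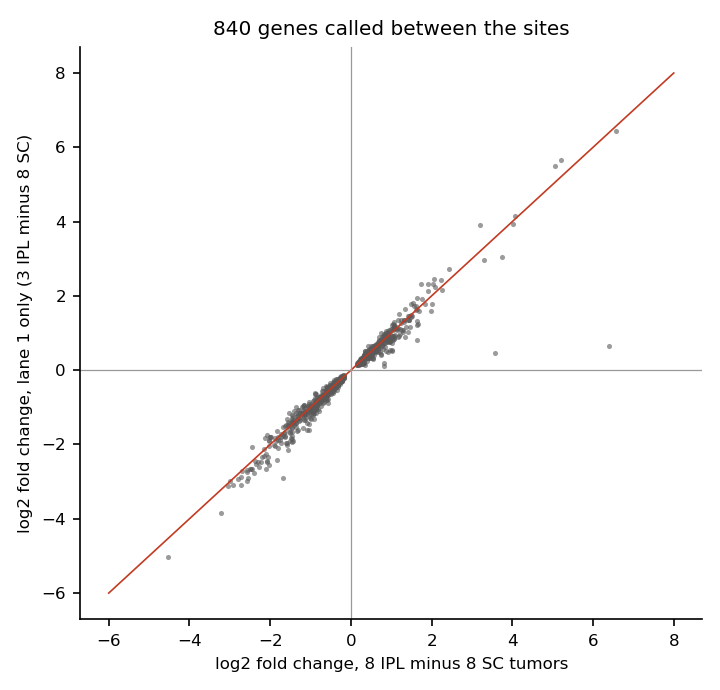
Log2 fold change (IPL minus SC) of the 840 called genes in all tumors (x axis, 8 against 8) and in lane 1 only (y axis, 3 IPL against 8 SC). Each point is a gene and the line marks equal values. All points lie in the lower left or upper right quadrant, and the median ratio of the lane 1 to the pooled value was 1.01.

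The calls depended on which tumors were present. Leaving out SC 1 raised the count from 840 to 2066 and leaving out SC 3 raised it to 1546, whereas leaving out IPL 4 lowered it to 316. SC 1 was the SC tumor closest to the IPL group in 42.5% of the higher and 34.9% of the lower genes, and SC 3 in 23.1% and 29.8%. On the other side, IPL 5 was the IPL tumor closest to the SC group in 36.0% of the higher and 42.7% of the lower genes. In every fit with 1 tumor left out, 276 of the 840 genes were called, 98 higher and 178 lower, and the number of these 16 fits in which a gene stayed called is given below where it is under 16.

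**Figure D2:**
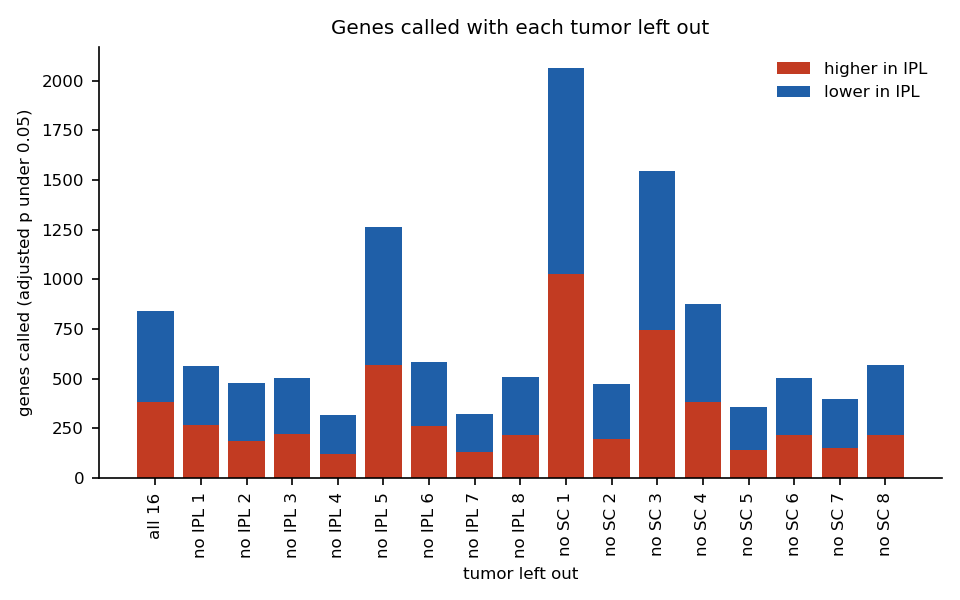
Number of genes called between IPL and SC tumors (y axis, adjusted p under 0.05) with all 16 tumors and with each tumor left out in turn (x axis), split into genes higher and lower in IPL tumors. The bars run from 316 genes without IPL 4 to 2066 without SC 1.

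Genes were read by function with 74 lists covering host tissues, circulation, immunity, matrix, adhesion, signaling, metabolism and cell state. The lists held 1350 distinct genes that passed the filter, of which 67 were higher and 92 lower in IPL tumors. Not a single member was called in 11 of the lists that had tested members. The shares per list are set below against the 5.73% called among all genes.

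**Figure D3:**
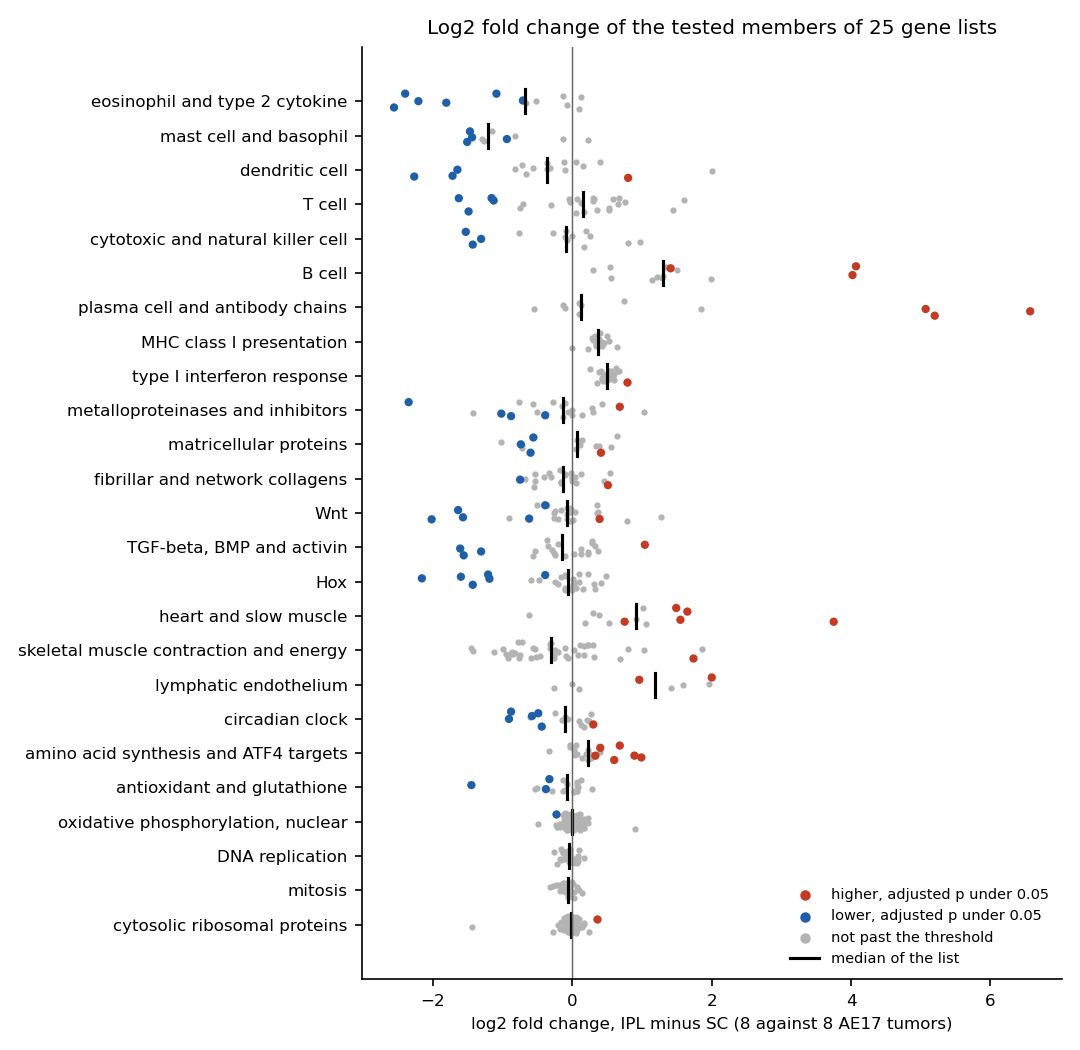
Log2 fold change (x axis, IPL minus SC, 8 against 8 tumors) of the tested members of 25 gene lists (y axis). Each point is a gene, colored where its adjusted p was under 0.05, and the bar is the median of the list. Eosinophil and mast cell members lie mostly to the left, heart and ATF4 members mostly to the right, and DNA replication, mitosis and ribosomal members mostly close to 0.

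Mesothelial genes fell mostly below the filter on low counts, which asks for a minimum in as many tumors as a group holds, and the 7 described here were at 0 to 3 counts in IPL 1. Of 15 listed mesothelial genes with a row, 6 were tested and 0 of these were called. In the fit without the filter, which covered 28453 genes, 7 of the other members were higher in IPL tumors, where 0.763% of all genes in that fit were higher. Upk3b, a uroplakin of the mesothelial surface, had 0 counts in IPL 1, between 28 and 114 counts in IPL 2 to 8, and 2 counts in all SC tumors together (edgeR adjusted p = 0.00321 without the filter). Wt1, a transcription factor of mesothelium, had 0 counts in IPL 1, 18 to 43 counts in IPL 2 to 8 and 0 to 5 counts in SC tumors (adjusted p = 0.00528). Each of IPL 2 to 8 was thus above every SC tumor for both genes, and IPL 1 was not. Lrrn4 had 0 counts in IPL 1, 23 to 89 counts in IPL 2 to 8 and 0 to 3 counts in SC tumors (adjusted p = 0.00604). Muc16, which encodes the mucin CA125, had 0 counts in IPL 1, 5 to 52 counts in IPL 2 to 8 and 1 count in all SC tumors together (adjusted p = 0.00700). Pkhd1l1, Gpm6a and Nkain4 were likewise at 0 to 3 counts in IPL 1 and higher in IPL 2 to 8 than in any SC tumor, with adjusted p of 0.00529, 0.0197 and 0.00858. Levels were a few CPM at most: the highest for Upk3b was 6.42 CPM. Krt19, a keratin of simple epithelium, was tested and not called (log2 difference 0.76 ± 0.51, adjusted p = 0.370).

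Several of the largest rises had their lowest IPL value in the same tumor, IPL 1. Myrf, a membrane-bound transcription factor known from myelination, ranged from 0.860 to 8.08 CPM (median 4.72) in IPL and from 0.356 to 1.56 CPM (median 0.789) in SC tumors. IPL 1 alone fell within the SC range, and the log2 difference was 2.44 ± 0.40 (SE, edgeR adjusted p = 0.00632), or 2.73 in lane 1. Abat, the enzyme that breaks down GABA, ranged from 0.229 to 6.64 CPM (median 1.66) in IPL and from 0.341 to 0.755 CPM (median 0.503) in SC tumors. For Abat IPL 1 was below every SC tumor and the other 7 IPL tumors were above every one, for a log2 difference of 1.99 ± 0.45 (adjusted p = 0.0231) and of 1.59 in lane 1. Angptl1, a secreted angiopoietin-like protein, was at 2.24 CPM in IPL 1 and 3.34 CPM in IPL 8, at 10.5 to 26.3 CPM in the other IPL tumors and at 2.58 to 6.17 CPM in SC tumors. Its log2 difference was 1.91 ± 0.43 (adjusted p = 0.0208) and 2.13 in lane 1. Igfbp2, which binds insulin-like growth factors, and Alox15, a lipoxygenase expressed by cavity macrophages, were at 0 CPM in IPL 1 and reached 2.77 and 7.78 CPM in other IPL tumors, with log2 differences of 1.92 ± 0.51 and 2.08 ± 0.58 (each called in 4 of the 16 fits with a tumor left out). The part of mesothelial cells in these differences was not tested. In the list of cavity and tissue-resident macrophage genes 4 of 13 tested members were called (30.8%), with a list median of 0.09. Alox15 and Icam2 (0.51 ± 0.12, called in 12 of 16 fits) were higher, and the lectins Cd209f and Cd209g were lower.

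The called genes of the 3 striated muscle lists were all higher in IPL tumors. Of 43 tested genes of mature skeletal muscle 1 was higher (2.33%), with a list median of -0.31. Among 13 tested genes of heart and slow muscle 5 were higher (38.5%), and among 11 of immature and regenerating muscle 3 were higher (27.3%). Tnnt2, the cardiac troponin T, ranged from 6.00 to 31.8 CPM (median 16.3) against 1.90 to 9.21 CPM (median 5.81), and 6 of 8 IPL tumors were above every SC tumor (log2 difference 1.49 ± 0.32, adjusted p = 0.0195, 1.42 in lane 1). The highest value was that of IPL 5, the tumor with the heart markers, and without IPL 5 and 8 together the log2 difference was 1.41 (adjusted p = 0.0132). With tissue marker scores as covariates, which include genes of these muscle lists, none of the muscle genes was called, as none of all genes was, and the log2 difference was 0.09 for Tnnt2 and 0.61 for Gata4. Gata4, a transcription factor of heart and of some mesenchyme, was at 21 to 37.2 CPM (median 29.1) in IPL and 8.94 to 24.5 CPM (median 16.6) in SC tumors (log2 difference 0.75 ± 0.18, adjusted p = 0.0269, 0.71 in lane 1, called in 12 of 16 fits).

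The immature muscle genes were low in IPL 1 and IPL 8, as was the summed level of the 5 skeletal muscle markers. That sum was 53.4 and 63.2 CPM there, 205 to 619 CPM in the other IPL tumors and 42.1 to 904 CPM in SC tumors. Myl4, an embryonic and atrial myosin light chain, was at 1.55 and 1.95 CPM in IPL 1 and IPL 8 and at 7.51 to 24.5 CPM in the other IPL tumors. In SC tumors it was at 1.53 to 4.14 CPM (log2 difference 2.05 ± 0.47, adjusted p = 0.0231, 2.46 in lane 1, called in 15 of 16 fits). Myog, which drives myoblast differentiation, was listed at 0 in IPL 1 and IPL 8 and reached 10.5 CPM in IPL 6. Its SC values ran from 0 to 0.960 CPM, and it was called in 4 of 16 fits. Tnni1, the slow skeletal troponin I and the 1 called gene of the mature muscle list, was at 1.03 CPM in IPL 1, 0.556 CPM in IPL 8 and up to 9.63 CPM in IPL 7, and was called in 5 of 16 fits (log2 difference 1.73 ± 0.49). With the tissue marker scores as covariates the log2 difference was 0.45 for Myl4, 0.48 for Tnni1 and 2.99 for Myog. Chrnb1, a subunit of the muscle acetylcholine receptor, was steadier, at 14.1 to 22.4 CPM (median 18.4) against 8.25 to 14.8 CPM (median 12), with 7 of 8 IPL tumors above every SC tumor (log2 difference 0.61 ± 0.12, adjusted p = 0.0129, 0.65 in lane 1). Below the filter, the ventricular light chain Myl2 had 1 count in IPL 1 and in IPL 8 and between 8 and 76 counts in the others, against 0 to 3 counts in SC tumors (adjusted p = 0.0152 without the filter).

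Vessel genes were called in both the lymphatic and the blood endothelial list. Of 8 lymphatic genes 2 were higher (25%), with a list median of 1.19, and of 23 blood endothelial genes 1 was higher and 1 lower (8.70%). Reln, a secreted glycoprotein made by lymphatic endothelium, was at 0.723 to 8.24 CPM (median 6.14) in IPL and 0.115 to 2.17 CPM (median 1.13) in SC tumors. IPL 1 and IPL 8 overlapped the SC range (log2 difference 2.00 ± 0.48, adjusted p = 0.0263, 1.77 in lane 1, called in 14 of 16 fits). Flt4, the receptor for the lymphatic growth factors, was higher with a log2 difference of 0.96 ± 0.26 (called in 7 of 16 fits), and its ligand Vegfd was lower, with 22.9 to 29.7 CPM against 26.3 to 59.6 CPM (log2 difference -0.50 ± 0.13, called in 8 of 16 fits). Aqp1, a water channel of capillaries and mesothelium, was at 89.5 to 192 CPM (median 123) in IPL and 197 to 582 CPM (median 223) in SC tumors. No IPL tumor reached the lowest SC tumor (log2 difference -1.05 ± 0.22, adjusted p = 0.0159, -1.23 in lane 1). Among contractile genes, Actg2, the enteric smooth muscle actin, and Tagln, transgelin, were higher, with log2 differences of 1.41 ± 0.28 and 1.21 ± 0.25. Cspg4, a proteoglycan of pericytes and of some tumor cells, was lower (-2.23 ± 0.48).

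Called leukocyte genes of the type 2 response were lower in IPL tumors. Of 12 tested eosinophil and type 2 genes 6 were lower and 0 higher (50.0%), and of 10 mast cell and basophil genes 4 were lower and 0 higher (40%). Ear2, an eosinophil-associated ribonuclease, was at 2.48 to 4.94 CPM (median 3.67) in IPL and 4.03 to 61.3 CPM (median 17.2) in SC tumors. SC 8 was the only SC tumor within the IPL range and SC 6 was the highest (log2 difference -2.40 ± 0.41, adjusted p = 0.00715, -2.78 in lane 1). Ear1 and Ear10 were lower by the same pattern, with log2 differences of -2.21 ± 0.39 and -2.56 ± 0.41. These 3 genes are close copies: 41.5% of the 50-base windows of Ear2 transcripts, 57.4% of those of Ear1 and 39.9% of those of Ear10 also occur in another gene, so reads of this length can be split among them and the values of each are uncertain. Ccl11, the eosinophil attractant eotaxin, was at 0.688 to 7.36 CPM (median 3.53) against 3.50 to 18.7 CPM (median 11.8), with 4 of 8 IPL tumors below every SC tumor (log2 difference -1.81 ± 0.43, adjusted p = 0.0255, -1.8 in lane 1, called in 15 of 16 fits). The receptors Il1rl1, which binds IL-33, and Ccr3, which binds eotaxin, were also lower (-0.71 ± 0.17, called in 12 of 16 fits, and -1.09 ± 0.29, called in 5).

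Called mast cell genes were also lower in IPL tumors. Kit, the stem cell factor receptor, was at 10.6 to 18.9 CPM (median 13.7) in IPL and 16.1 to 36.6 CPM (median 31.6) in SC tumors. SC 4, SC 6 and SC 8 were the low SC tumors, at 16.1, 18.9 and 17.3 CPM, next to 31 CPM or more in the other 5 (log2 difference -0.94 ± 0.20, adjusted p = 0.0159, -1.11 in lane 1). Ms4a2, the beta chain of the high-affinity IgE receptor, was at 0.167 to 2.71 CPM (median 1.27) against 1.48 to 7.84 CPM (median 4.49), a log2 difference of -1.51 ± 0.41 (adjusted p = 0.0404, -1.91 in lane 1, called in 9 of 16 fits). Cd200r3, a receptor of mast cells and basophils, differed by -1.47 ± 0.34 (called in 15 of 16 fits) and the mast cell receptor Mrgprb1 by -1.44 ± 0.41 (called in 5 of 16). Slc6a4, the serotonin transporter, had the smallest p of all genes. It was at 2.08 to 3.24 CPM (median 2.67) in IPL and 6.25 to 13.7 CPM (median 10.9) in SC tumors. No tumors overlapped (log2 difference -1.91 ± 0.18, adjusted p = 6.63e-05), and it was the 1 gene called with lane as a term (-2.02, adjusted p = 0.0149). The other 7 tested genes of serotonin synthesis and reception were not called.

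Among dendritic cell genes, a pair of chemokines was lower. Of 17 dendritic cell genes 3 were lower and 1 higher (23.5%). Ccl17, a ligand of CCR4 on type 2 and regulatory T cells, was at 1.17 to 2.87 CPM (median 1.66) in IPL and 3.32 to 21.2 CPM (median 6.80) in SC tumors, and Ccl22, the other ligand of CCR4, at 3.78 to 13.3 CPM (median 8.27) against 10.7 to 38.8 CPM (median 25). For Ccl17 the sites did not overlap, and for Ccl22 1 IPL tumor reached the SC range. Their log2 differences were -2.27 ± 0.36 and -1.65 ± 0.29 (adjusted p = 0.00632 and 0.00761), and -2.60 and -1.68 in lane 1. Cadm1, an adhesion molecule of the cross-presenting subset that other cells share, was the higher one (0.80 ± 0.22, called in 4 of 16 fits).

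The CD209 C-type lectins, related to DC-SIGN and carried by dendritic cells and by some tissue macrophages, were counted as a family after their values were seen. All 5 tested members were lower, and in all 16 fits with a tumor left out. Of the untested members, Cd209b had 0 to 199 counts in IPL and 0 to 18 in SC tumors, and Cd209e 0 to 5 and 2 to 20. Cd209a was at 3.11 to 7.78 CPM (median 5.40) in IPL and 8.44 to 28.7 CPM (median 18.3) in SC tumors, without overlap (log2 difference -1.72 ± 0.27, adjusted p = 0.00598, -1.72 in lane 1). Cd209f was at 0 to 3.71 CPM (median 0.53) against 1.53 to 14.4 CPM (median 6.87), and the 2 overlapping IPL tumors were IPL 5 and IPL 8 (log2 difference -2.73 ± 0.60, adjusted p = 0.0198, -2.88 in lane 1). Cd209g, Cd209d and Cd209c differed by -2.79 ± 0.61, -2.71 ± 0.47 and -2.07 ± 0.35. Another gene holds 29.8% of the 50-base windows of Cd209f, 16.6% of those of Cd209g and 11.6% of those of Cd209c, so these counts are uncertain, whereas Cd209a and Cd209d shared none. In the general macrophage list 1 of 20 members was called, the lower Gpnmb (-1.0 ± 0.25, called in 7 of 16 fits).

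Called genes of the T cell list were lower. Of 26 tested members 4 were lower and 0 higher (15.4%), and these were genes known from regulatory and activated T cells. Foxp3, the regulatory T cell transcription factor, was at 1.38 to 5.21 CPM (median 2.67) in IPL and 2.71 to 13.7 CPM (median 10.8) in SC tumors. The low SC tumors were SC 6 at 2.71, SC 4 at 3.36 and SC 8 at 4.62 CPM, within the IPL range, and the other 5 were at 8.60 CPM or more (log2 difference -1.63 ± 0.38, adjusted p = 0.0248, -1.67 in lane 1, called in 14 of 16 fits). Il2ra, the IL-2 receptor alpha chain, was at 3.73 to 7.16 CPM (median 4.79) against 5.22 to 16.4 CPM (median 12.5), and Icos, a costimulatory receptor, at 1.89 to 8.2 CPM (median 2.93) against 3.29 to 18.6 CPM (median 10.4). They differed by -1.16 ± 0.22 (adjusted p = 0.0129) and -1.49 ± 0.37 (adjusted p = 0.0288, called in 9 of 16 fits), and by -0.94 and -1.45 in lane 1. Tnfrsf4, the costimulatory receptor OX40, was at 6.76 to 10.8 CPM (median 9.18) in IPL and 13.6 to 34.4 CPM (median 17.6) in SC tumors, without overlap (log2 difference -1.13 ± 0.17, adjusted p = 0.00512, -1.19 in lane 1). It did not follow the other called genes of the list within SC tumors. Tnfrsf4 was highest in SC 8, against 20.2 CPM in the next tumor, whereas Foxp3, Il2ra and Icos were low in SC 8, at 4.62, 5.22 and 4.98 CPM. The T cell receptor chain genes Cd3e and Trac had log2 differences of 0.76 ± 0.39 and 0.53 ± 0.37 (adjusted p = 0.236 and 0.391). Cd8a, the co-receptor of cytotoxic T cells, was at 1.6 ± 0.51 (adjusted p = 0.0732), and its counts ran from 456 to 971 in IPL and from 15 to 780 in SC tumors. Tox, a transcription factor expressed in exhausted T cells and in other lymphocytes, was higher, at 5.37 to 13.5 CPM (median 8.73) against 0.593 to 6.93 CPM (median 2.32), with 7 of 8 IPL tumors above every SC tumor (log2 difference 1.61 ± 0.36, adjusted p = 0.0207, 1.74 in lane 1).

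Some natural killer receptors were lower. Of 14 tested cytotoxic and natural killer genes 3 were lower (21.4%). Ncr1, the activating receptor NKp46, was at 2.08 to 5.73 CPM (median 2.66) in IPL and 2.49 to 12.3 CPM (median 8.76) in SC tumors. SC 8 was at 2.49 CPM and the other SC tumors were at 6.08 CPM or more (log2 difference -1.43 ± 0.28, adjusted p = 0.0129, -1.23 in lane 1). Of the Klra (Ly49) family genes, counted after their values were seen, 5 of 12 were lower and 0 higher (41.7%). These were Klra7, Klra8 and Klra9, and Klra13-ps and Klra14-ps, which are named as pseudogenes. Klra8 and Klra13-ps were called in 7 of 16 fits, and Klra9 and Klra14-ps in 6. In the Klrb1 family, which includes NK1.1, 4 of 4 were lower. Klra7 was at 1.26 to 3.39 CPM (median 1.43) against 0.889 to 9.88 CPM (median 4.97), with SC 8 lowest, and differed by -1.53 ± 0.34 (adjusted p = 0.0207, -1.15 in lane 1). Klrb1c differed by -1.31 ± 0.32 (called in 7 of 16 fits), Klrb1b by -1.01 ± 0.22 and Klrb1a by -1.0 ± 0.21. Copies share sequence in both families: 33.1% of the windows of Klra8, 12.3% of those of Klra7 and 27.2% of those of Klrb1b occur in another gene, so the value of each member is uncertain.

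**Figure D4:**
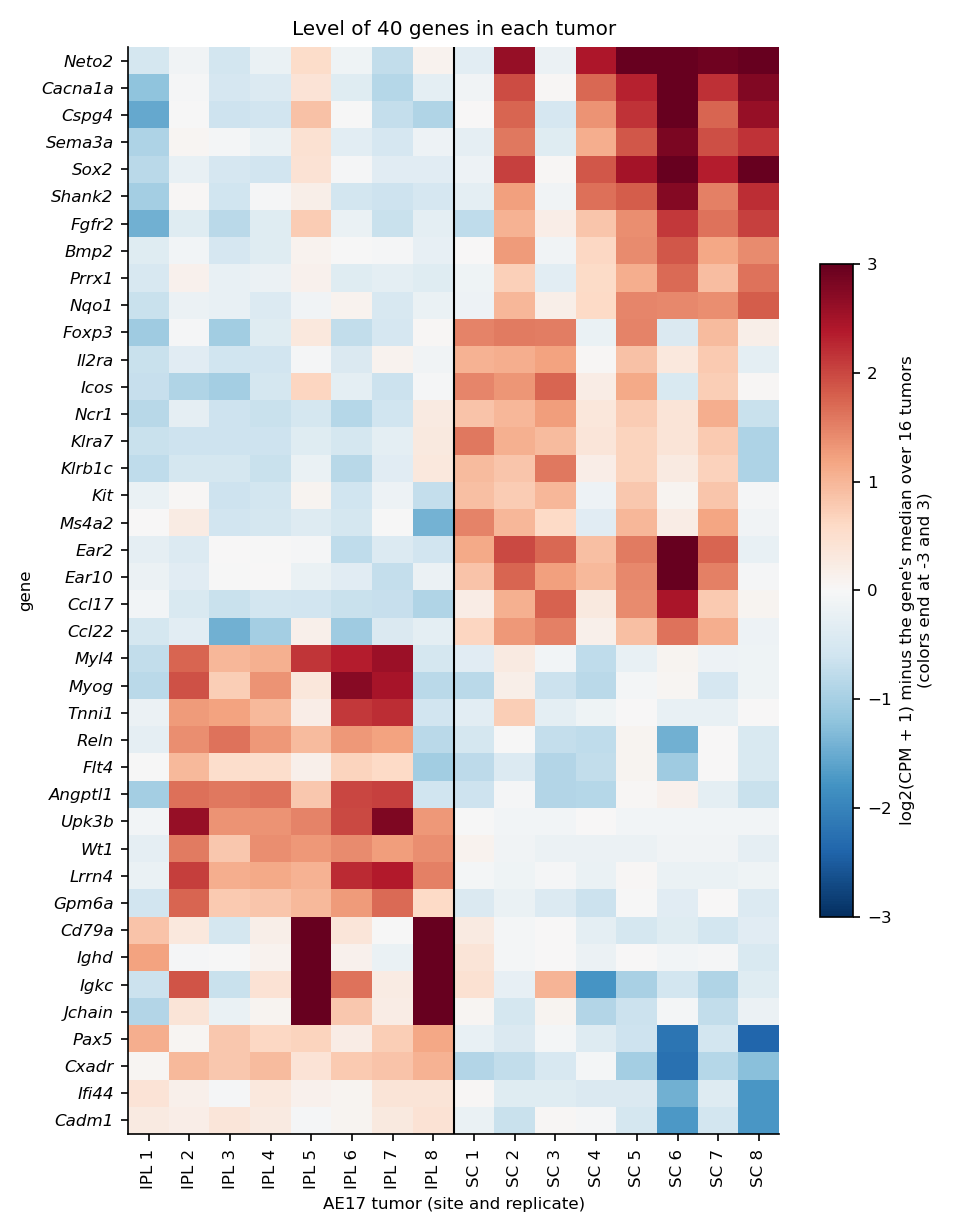
Level of 40 genes (rows) in each AE17 tumor (columns, IPL 1 to 8 and SC 1 to 8), as log2(CPM + 1) minus the median of the gene over the 16 tumors. The top block is low in SC 1 and SC 3 and high in SC 6 and SC 8. The regulatory T cell and NK receptor genes are higher in SC 1, 2, 3, 5 and 7 than in SC 4, 6 and 8. The muscle and mesothelial genes are at or near their lowest in IPL 1, and the antibody genes are high in IPL 5 and IPL 8.

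The called B cell and plasma cell genes were higher in IPL tumors. Of 13 B cell genes 3 were higher (23.1%), and of 11 plasma cell genes 3 (27.3%). Cd79a, a chain of the B cell receptor complex, was at 41.7 CPM in IPL 5 and 28.3 CPM in IPL 8, at no more than 2.29 CPM in the other IPL tumors and at no more than 1.19 CPM in SC tumors. Without IPL 5 and 8 its log2 difference went from 4.07 (adjusted p = 0.0338, called in 10 of 16 fits) to 1.03 (adjusted p = 0.145). The value of Ighd went from 4.02 (called in 7 of 16 fits) to 0.63 in the same way, and Ighg2b from 6.57 (called in 9 of 16 fits) to 0.44 (adjusted p = 0.727). Pax5, the transcription factor of B cell identity, did not follow: it was at 48.3 to 106 CPM (median 76.9) in IPL and 8.18 to 45.1 CPM (median 32.8) in SC tumors. All IPL tumors were above all SC tumors, the lowest being SC 8 and SC 6, and the log2 difference was 1.41 ± 0.30 (adjusted p = 0.0187, 1.45 in lane 1) and 1.32 (adjusted p = 0.0334) without IPL 5 and 8. In SC tumors, where Pax5 reached 45.1 CPM, the B cell surface gene Ms4a1 had 0 to 13 counts per tumor.

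Interferon and antigen presentation genes gave few calls, at shares below the 5.73% over all genes. All 27 tested type I interferon genes had positive log2 differences, with a median of 0.50 against 0.00 for all genes, and 1 was called (3.70%). That gene, Ifi44, was at 169 to 229 CPM (median 204) in IPL and 50.9 to 175 CPM (median 130.0) in SC tumors, with SC 8 and SC 6 lowest, at 50.9 and 62.6 CPM (log2 difference 0.79 ± 0.20, adjusted p = 0.0302, 0.84 in lane 1, called in 11 of 16 fits). All 22 interferon-gamma induced genes were likewise above 0, with a median of 0.42 and 1 called, Gbp7 (0.46 ± 0.13, called in 3 of 16 fits). Of 19 genes of MHC class I presentation 18 were above 0, with a median of 0.37 and 0 called, and of 10 of MHC class II 0 were called, with a median of -0.13.

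Among inflammatory and antimicrobial genes, the direction was mixed. Padi4, which citrullinates histones in neutrophils, was at 9.40 to 20.6 CPM (median 16.9) in IPL and 4.41 to 8.86 CPM (median 6.87) in SC tumors, without overlap (log2 difference 1.23 ± 0.18, adjusted p = 0.00512, 1.28 in lane 1), as the 1 called gene among 18 of the neutrophil list. Of 22 inflammatory cytokine list genes 1 was higher and 3 were lower (18.2%). Csf3, the granulocyte growth factor G-CSF, was higher (1.28 ± 0.34, called in 5 of 16 fits). Il12b (-1.07 ± 0.30), the prostaglandin E synthase Ptges (-1.05 ± 0.30) and Clcf1 (-0.26 ± 0.07) were lower, called in 5, 4 and 8 of the 16 fits. The lectin Reg3g was the largest fall (-4.54 ± 0.61, adjusted p = 0.00263) and its relative Reg1, below the filter, had 0 to 2 counts in IPL and 6 to 48 counts in SC tumors (adjusted p = 0.00302 without the filter). Alox5, the first enzyme of leukotriene synthesis, was at 2.50 to 7.75 CPM (median 4.97) against 8.28 to 14.8 CPM (median 9.10), without overlap (log2 difference -0.91 ± 0.19, adjusted p = 0.0153, -1.32 in lane 1).

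**Figure D5:**
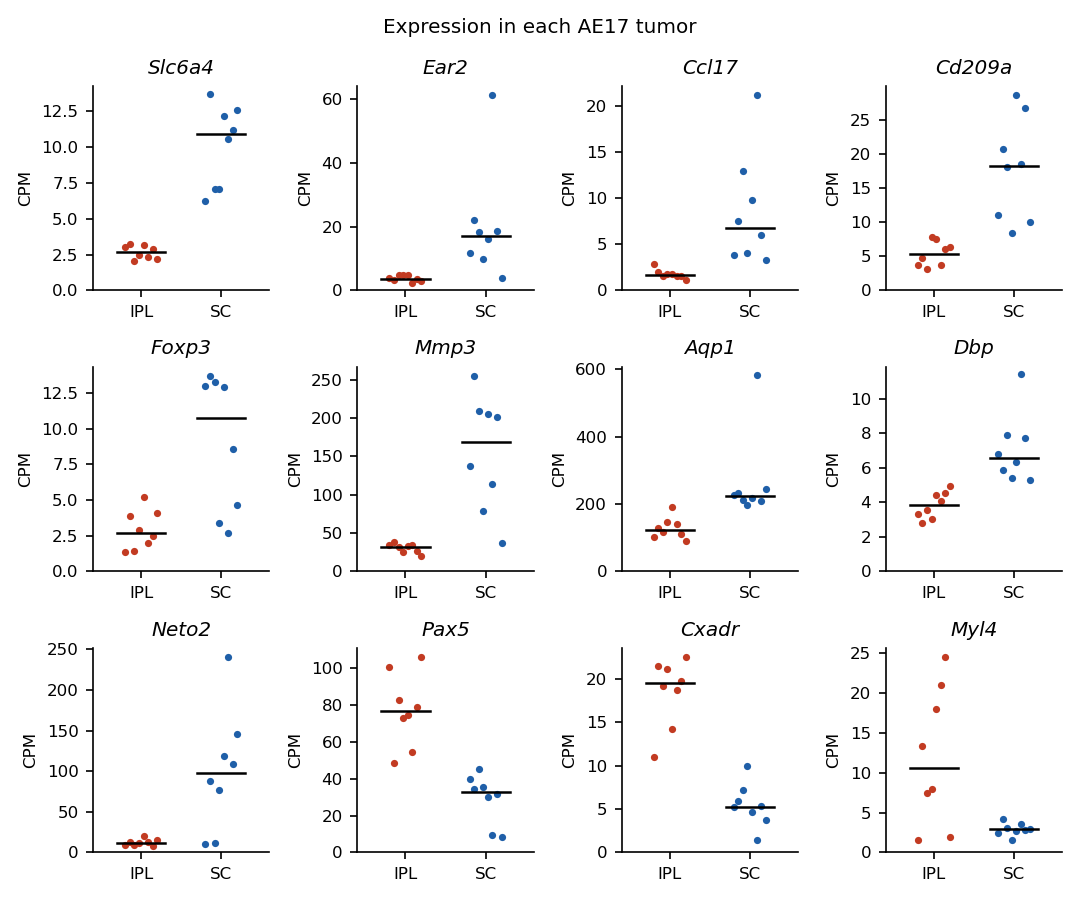
CPM (y axis, linear from 0, one scale per panel) of 12 genes in each IPL and SC tumor (x axis). Each point is a tumor and the line is the median of 8. Slc6a4, Ccl17, Cd209a, Aqp1, Dbp, Pax5 and Cxadr do not overlap between the sites, while Neto2 has 2 SC tumors at the IPL level and Myl4 has 2 IPL tumors at the SC level.

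Matrix-degrading and matricellular genes were called in both directions. Of 21 metalloproteinases and inhibitors 4 were lower and 1 higher (23.8%), all 5 in each fit with a tumor left out, and of 15 matricellular genes 3 were lower and 1 higher (26.7%). Mmp2, gelatinase A, was at 201 to 478 CPM (median 297) in IPL and 399 to 851 CPM (median 574) in SC tumors, with 7 of 8 IPL tumors below every SC tumor (log2 difference -0.88 ± 0.18, adjusted p = 0.0144, -0.99 in lane 1). Its inhibitor Timp2 fell with it and without overlap, from 768 to 1279 CPM in SC tumors to 605 to 726 CPM in IPL tumors (-0.39 ± 0.09, adjusted p = 0.0248, -0.40 in lane 1). Mmp3, stromelysin 1, differed the most, at 19.5 to 38.6 CPM against 37.7 to 255 CPM, with SC 8 the lowest SC tumor (-2.35 ± 0.30, adjusted p = 0.00258, -2.53 in lane 1). Mmp11, stromelysin 3, was at 18.3 to 38.7 CPM (median 32) against 41.4 to 123 CPM (median 56.3), also without overlap (-1.02 ± 0.20, adjusted p = 0.0139, -0.98 in lane 1). Spp1, osteopontin, one of the abundant genes here, was at 543 to 729.8 CPM (median 660.0) against 812 to 1114 CPM (median 1006), again without overlap (-0.60 ± 0.08, adjusted p = 0.00230, -0.56 in lane 1). Thrombospondin 3, Thbs3, and Edil3 also fell (-0.74 ± 0.16 and -0.56 ± 0.12) and Mfge8, a phosphatidylserine-binding protein, rose (0.41 ± 0.09). Adamts9 was the protease that rose (0.68 ± 0.14, adjusted p = 0.0139).

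Structural matrix genes were called in both directions. Of 24 collagens 1 was higher and 1 lower (8.33%). Col6a3 was at 759 to 1292 CPM (median 901) in IPL and 1061 to 3027 CPM (median 1492) in SC tumors, highest in SC 6 (log2 difference -0.75 ± 0.18, adjusted p = 0.0262, -0.96 in lane 1, called in 15 of 16 fits), and Col7a1, the anchoring fibril collagen, was higher (0.51 ± 0.14, called in 5 of 16 fits). Basement membrane genes gave 3 higher of 19 (15.8%): the laminin chains Lamc3 (1.08 ± 0.23) and Lamb1 (0.19 ± 0.05, called in 9 of 16 fits) and the proteoglycan agrin, Agrn (0.43 ± 0.11, called in 6). Among 18 fibroblast genes 2 were lower (11.1%), Cd34 and Scara5. Scara5, a ferritin receptor of adventitial fibroblasts, was at 0.401 to 10.1 CPM (median 1.54) in IPL, highest in IPL 5, and 7.49 to 65.2 CPM (median 17.9) in SC tumors (-3.21 ± 0.62, adjusted p = 0.0136, -3.85 in lane 1). Cd34 was at 79.0 to 148 CPM against 153 to 313 CPM, without overlap (-0.85 ± 0.17, adjusted p = 0.0144, -0.75 in lane 1).

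Adhesion genes were called in both directions. Itgb3, the beta 3 integrin that binds vitronectin and osteopontin, was at 62.2 to 92.1 CPM (median 74.4) in IPL and 35.6 to 59.8 CPM (median 46.4) in SC tumors, without overlap (log2 difference 0.63 ± 0.10, adjusted p = 0.00598, 0.64 in lane 1). Itgb4, the hemidesmosomal beta 4 chain, and Itga8 were lower (-1.72 ± 0.41, called in 13 of 16 fits, and -1.47 ± 0.30), and Itga3 was higher (0.86 ± 0.24, called in 4 of 16 fits). Cxadr, the coxsackie and adenovirus receptor of cell junctions, was at 11 to 22.5 CPM (median 19.5) against 1.44 to 9.91 CPM (median 5.28), without overlap (1.77 ± 0.26, adjusted p = 0.00512, 1.91 in lane 1). Among 16 cadherin, junction and mesenchymal transition genes 3 were higher and 2 lower (31.2%): P-cadherin, Cdh3 (1.64 ± 0.33), plakoglobin, Jup (0.57 ± 0.14, called in 9 of 16 fits) and Tjp1 (0.42 ± 0.10, called in 8 of 16 fits) rose, and claudin 1, Cldn1 (-2.10 ± 0.38), and Twist2 (-0.82 ± 0.19, called in 14 of 16 fits) fell. Below the filter, Cldn3 had 1 count in IPL 1, 6 to 16 counts in IPL 2 to 8 and 0 to 2 counts in SC tumors. Itgb4 and Cldn1 were highest in SC 5 and SC 6, at 22.3 and 20.1 CPM and at 9.12 and 5.08 CPM. Those tumors had the highest epidermal marker sums, and the part of epidermal cells was not tested.

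Genes known from neurons were called in both directions. The list of axon guidance and neuropeptide genes did not move 1 way: of 23 tested, 1 was higher and 2 were lower (13%), with a list median of -0.01. Sema3f, a secreted guidance cue, was higher (log2 difference 0.66 ± 0.16, adjusted p = 0.0268, called in 12 of 16 fits), and Penk, the enkephalin precursor, was lower (-1.98 ± 0.47, adjusted p = 0.0274, called in 10 of 16 fits), as was Sema3a. Lrrn2, Shank1 and Abat were also higher, with log2 differences of 2.26, 1.83 and 1.99. In Neto2, Cacna1a, Sox2 and Sema3a, all lower, the lowest SC tumors were SC 1 and SC 3. Neto2, an auxiliary subunit of kainate receptors, was at 7.72 to 20.1 CPM (median 11.9) in IPL tumors. In SC tumors it was at 10.7 and 11.9 CPM in SC 1 and SC 3, and at 76.8 to 240.0 CPM in the other 6 (log2 difference -3.05 ± 0.53, adjusted p = 0.00804, -3.12 in lane 1). Cacna1a, the P/Q-type calcium channel, was at 3.50 to 12.8 CPM in IPL, at 8.75 and 9.74 CPM in SC 1 and SC 3, and at 33.2 to 87.7 CPM in the other SC tumors (-2.58 ± 0.43, adjusted p = 0.00661, -2.75 in lane 1). Sox2, a stem cell transcription factor, was at 1.09 to 3.95 CPM in IPL, 2.27 and 2.76 CPM in SC 1 and SC 3 and 12.2 to 32.7 CPM in the other SC tumors (-2.99 ± 0.49, adjusted p = 0.00632, -2.97 in lane 1). Sema3a, a repulsive guidance cue, was at 25.1 to 66.7 CPM in IPL, 40.4 and 37.4 CPM in SC 1 and SC 3 and 104 to 351 CPM in the other SC tumors (-1.87 ± 0.39, adjusted p = 0.0162, -2.04 in lane 1). Shank2, Cspg4, Fgfr2, Bmp2, Prrx1 and Nqo1 were also lowest among the SC tumors in SC 1 and SC 3, and all were called lower in IPL tumors. Naming these genes together was done after their values were seen. Voltage-gated calcium channel subunits, counted after their values were seen, gave 2 lower and 2 higher of 16: Cacnb2 fell with Cacna1a (-2.37 ± 0.38), and Cacna1i and Cacng8 rose (1.34 ± 0.29 and 1.03 ± 0.29, the latter called in 3 of 16 fits).

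Called positional transcription factors were lower, apart from those named below as higher. Hox genes keep the body-axis address of mesenchymal cells through adult life, and the Hoxd genes lie side by side in a cluster. Of 31 tested Hox genes, whose median was -0.07, 6 were lower and 0 higher (19.4%): Hoxd9, Hoxd8, Hoxd4, Hoxd3, Hoxa13 and Hoxa11, of which Hoxd3 and Hoxa11 were each called in 3 of 16 fits. Hoxd9 was at 0.344 to 1.71 CPM (median 0.977) in IPL and 1.70 to 9.01 CPM (median 4.12) in SC tumors, where SC 3 and SC 1 were lowest (log2 difference -2.16 ± 0.37, adjusted p = 0.00728, -2.31 in lane 1). Hoxd8 was at 4.70 to 11.8 CPM (median 7.94) against 10.4 to 34.4 CPM (median 17.9), a difference of -1.19 ± 0.24 (adjusted p = 0.0153, -1.17 in lane 1). Hoxd10, below the filter, had 0 to 5 counts in IPL and 7 to 61 counts in SC tumors (adjusted p = 0.00600 without the filter), whereas the patterning factor Alx4, also below it, had 7 to 28 counts in IPL and 1 to 9 counts in SC tumors (adjusted p = 0.00528). Hoxa13, a distal-limb gene, differed by -1.43 ± 0.29 and Hoxd4 by -1.21 ± 0.26, although another gene holds 46.8% of the windows of Hoxd4. Of 25 limb, trunk and skin patterning factors, a list made after values were seen, 13 were lower and 1, Meis1, was higher (56.0%), Meis1 in 15 of 16 fits. Prrx1, a limb bud mesenchyme factor, was at 72.8 to 113 CPM (median 85.6) in IPL and 81.6 to 333 CPM (median 182) in SC tumors, with SC 3 and SC 1 lowest (-1.13 ± 0.25, adjusted p = 0.0207, -1.28 in lane 1). Zic1, Zic4, En1, Shox2 and Emx2 were also lower, with log2 differences of -1.63, -1.50, -1.26, -0.99 and -1.0, called in 16, 4, 14, 13 and 5 of the 16 fits.

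Signaling genes outside this group were called in both directions. Of 28 Wnt genes 5 were lower and 1 higher (21.4%). Notum, a secreted Wnt deacylase, was at 1.78 to 4.76 CPM (median 4.29) in IPL and 7.34 to 29.4 CPM (median 10.3) in SC tumors, without overlap (log2 difference -1.64 ± 0.27, adjusted p = 0.00632, -1.79 in lane 1). Sfrp2, a secreted Wnt binder of dermal fibroblasts, was at 3.17 to 16.4 CPM (median 4.19) against 8.12 to 46.5 CPM (median 19.5) (-2.02 ± 0.40, adjusted p = 0.0139, -2.55 in lane 1). The ligand Wnt2 and the feedback target Axin2 fell (-1.57 ± 0.33 and -0.62 ± 0.16, the latter called in 8 of 16 fits), the co-receptor Lrp5 rose (0.39 ± 0.09, called in 15 of 16 fits), and Wnt4, below the filter, had 10 to 58 counts in IPL and 2 to 7 counts in SC tumors (adjusted p = 0.00321 without the filter). In the TGF-beta and BMP list 3 of 22 were lower and 1 higher (18.2%), with Bmp2 at 19 to 29.5 CPM (median 24.3) against 25.5 to 102 CPM (median 65.4) (-1.31 ± 0.24, adjusted p = 0.00933, -1.23 in lane 1). Fgf1, an acidic fibroblast growth factor, was at 4.82 to 13.8 CPM (median 8.23) against 1.72 to 5.34 CPM (median 3.31) (1.43 ± 0.24, adjusted p = 0.00661, 1.47 in lane 1), whereas its receptor Fgfr2 fell (-1.69 ± 0.39, called in 15 of 16 fits).

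The aryl hydrocarbon receptor and its usual targets, listed after values were seen, were lower in 5 of 8 tested members, all 5 in every fit with a tumor left out. Ahr, a ligand-activated transcription factor that senses dietary, microbial and xenobiotic ring compounds, was at 23.3 to 41.3 CPM (median 29.7) in IPL and 34.9 to 89.9 CPM (median 56.2) in SC tumors, with SC 3, SC 4 and SC 1 lowest (log2 difference -0.86 ± 0.17, adjusted p = 0.0150, -0.94 in lane 1). Ahrr, its repressor and target, was at 1.26 to 2.46 CPM (median 1.93) against 2.67 to 5.10 CPM (median 3.77), without overlap (-1.04 ± 0.16, adjusted p = 0.00512, -1.01 in lane 1). Nqo1, a quinone reductase shared with the antioxidant response, was at 6.36 to 11.5 CPM (median 9.07) against 9.49 to 40.1 CPM (median 26) (-1.45 ± 0.25, adjusted p = 0.00761, -1.36 in lane 1). The conjugating enzymes Ugt1a6a and Ugt1a6b, which share most of their sequence with other genes (52.1% and 79.8% of windows), differed by -1.63 ± 0.36 and -1.75 ± 0.40. With tissue marker scores as covariates the log2 differences of Ahr, Ahrr, Nqo1, Ugt1a6a and Ugt1a6b were smaller, at -0.50, -0.75, -1.04, -0.72 and -0.83. In the antioxidant list the glutathione synthesis genes Gclc and Gclm were lower by small amounts (-0.33 ± 0.08, called in 12 of 16 fits, and -0.38 ± 0.10, called in 4).

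Clock genes gave mostly lower calls. The circadian clock is a feedback loop in which CLOCK and BMAL1 (Arntl) bind E-box sites to drive the Per, Cry, Nr1d and PAR bZIP genes, and the PAR bZIP factors DBP and TEF in turn bind D-box sites. Of 17 tested clock genes 5 were lower and 1 higher (35.3%). Dbp was at 2.83 to 4.95 CPM (median 3.82) in IPL and 5.28 to 11.4 CPM (median 6.57) in SC tumors, without overlap (log2 difference -0.88 ± 0.17, adjusted p = 0.0101, -0.65 in lane 1). Tef was at 41.5 to 69.1 CPM (median 60.0) against 68.2 to 102 CPM (median 84.8), with 1 IPL tumor inside the SC range (-0.58 ± 0.11, adjusted p = 0.0129, -0.44 in lane 1). Per3 was at 5.27 to 10.5 CPM (median 7.30) against 7.84 to 20.6 CPM (median 13.8) (-0.91 ± 0.19, adjusted p = 0.0150, -0.80 in lane 1). Nr1d2 and Nr1d1, which encode REV-ERB repressors, differed by -0.49 ± 0.09 and -0.44 ± 0.11 (the latter called in 15 of 16 fits), and Arntl, which they repress, by 0.30 ± 0.08 (called in 4 of 16 fits). The hour at which each tumor was collected is not given in the sources used here, and its part in these differences was not tested.

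Promoter sequence is shown for 3 of the lower clock genes because they differ in which clock motif their start regions hold. RefSeq promoter windows of 300 bases (build GRCm38.p6) were found for 14 of the 17 tested clock genes. The E-box CACGTG and the D-box letters TTATGTAA or TTATGCAA were searched on both strands and are in capitals. The E-box was in 7.15% and the D-box in 1.66% of 32851 mouse promoter windows. Among the 14 genes, Tef, Cry1, Ciart and Bhlhe41 held an E-box, and Per3 held 2 copies of the D-box, whereas Dbp held neither within this window.
Per3 (chr4:151044616-151044915, minus strand): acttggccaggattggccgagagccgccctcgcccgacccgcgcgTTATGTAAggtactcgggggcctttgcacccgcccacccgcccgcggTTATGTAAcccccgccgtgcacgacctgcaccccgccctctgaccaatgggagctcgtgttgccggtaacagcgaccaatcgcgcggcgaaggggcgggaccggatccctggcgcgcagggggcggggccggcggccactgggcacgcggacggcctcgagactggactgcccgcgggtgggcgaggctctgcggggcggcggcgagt
Tef (chr15:81811164-81811463, plus strand): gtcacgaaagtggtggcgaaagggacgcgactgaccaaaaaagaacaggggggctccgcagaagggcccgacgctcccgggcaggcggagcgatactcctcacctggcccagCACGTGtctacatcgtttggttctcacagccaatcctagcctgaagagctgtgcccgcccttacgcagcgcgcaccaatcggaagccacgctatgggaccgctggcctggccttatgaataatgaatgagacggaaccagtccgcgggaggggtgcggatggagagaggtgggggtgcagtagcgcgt
Dbp (chr7:45704997-45705296, plus strand): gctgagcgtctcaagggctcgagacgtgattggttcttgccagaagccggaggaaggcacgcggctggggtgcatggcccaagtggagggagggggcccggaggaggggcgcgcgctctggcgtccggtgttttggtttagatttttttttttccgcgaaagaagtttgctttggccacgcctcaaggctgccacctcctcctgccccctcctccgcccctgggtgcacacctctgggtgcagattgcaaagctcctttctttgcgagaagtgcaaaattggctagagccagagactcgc
Called and uncalled clock genes both occurred among those with an E-box: Tef was lower, and Cry1, Ciart and Bhlhe41 were not called. A match describes these letters only.

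Metabolic and stress genes gave 1 list of rises. Of 20 genes of amino acid synthesis and the ATF4 response, the transcriptional program for amino acid shortage, 6 were higher and 0 lower (30%). Chac1, which degrades glutathione and is a strong ATF4 target, was at 6.31 to 9.20 CPM (median 7.40) in IPL and 3.54 to 5.96 CPM (median 3.93) in SC tumors, without overlap (log2 difference 0.89 ± 0.12, adjusted p = 0.00263, 0.76 in lane 1). Sesn2, a sestrin that restrains mTORC1 on amino acid shortage, was at 35.5 to 43.6 CPM (median 37.9) against 19 to 34.3 CPM (median 29.7), also without overlap (0.40 ± 0.09, adjusted p = 0.0237, 0.39 in lane 1). Asns, asparagine synthetase, was at 61.0 to 84.8 CPM (median 75.3) against 45.7 to 67.5 CPM (median 60.4) (0.33 ± 0.08, adjusted p = 0.0338, 0.40 in lane 1, called in 7 of 16 fits). Cebpb (0.60 ± 0.14), Cth (0.99 ± 0.26) and Trib3 (0.68 ± 0.19) were the other 3, called in 15, 5 and 3 of the 16 fits. Stc2, a secreted glycoprotein of the stress response filed in the hypoxia list, went the other way (-2.15 ± 0.40, adjusted p = 0.00933), as the 1 called of 17 hypoxia genes. Of 14 iron handling genes 2 were lower (14.3%), the iron exporter ferroportin, Slc40a1, and the ferrireductase Steap3 (-0.86 ± 0.19 and -0.70 ± 0.16). In cholesterol synthesis Mvd and the sterol sensor Insig1 were lower (-0.48 ± 0.10 and -0.38 ± 0.09, the latter called in 12 of 16 fits). In glycolysis Hk2 was higher and the glucose transporter Slc2a3 lower (0.49 ± 0.13, called in 5 of 16 fits, and -0.67 ± 0.17, called in 9).

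Genes of growth and of the basic cell machinery were rarely called. Of 30 DNA replication and 29 mitosis genes 0 were called, with medians of -0.05 and -0.06 and log2 differences within -0.26 to 0.16 and -0.32 to 0.14. Of 79 nuclear genes of oxidative phosphorylation 1 was called (1.27%), of 72 cytosolic ribosomal proteins 1 (1.39%), and of 16 tricarboxylic acid cycle, 32 proteasome and 20 unfolded protein response genes 0. These shares lie below the 5.73% over all genes. Among p53 targets Cdkn1a and Mdm2 were higher (0.32 ± 0.09 and 0.22 ± 0.06) and Sesn1 lower (-0.36 ± 0.10), each called in 4 of 16 fits. Among chaperones Hspb8, a small heat shock protein, was at 135 to 161 CPM against 104 to 126 CPM, without overlap (0.30 ± 0.05, adjusted p = 0.00715, 0.34 in lane 1).

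Other genes, most of them outside the lists, were among the largest or firmest differences. Adh7, a retinol-oxidizing alcohol dehydrogenase, was at 0.936 to 1.73 CPM in IPL and 2.12 to 5.21 CPM in SC tumors, and Rgs18, a G protein regulator of platelets and myeloid cells, at 1.79 to 2.87 CPM against 3.25 to 7.79 CPM. Neither gene overlapped between the sites, with log2 differences of -1.47 ± 0.19 (adjusted p = 0.00230, -1.20 in lane 1) and -1.28 ± 0.19 (adjusted p = 0.00512, -1.38 in lane 1). The neuronal pentraxin Nptx1 differed by -2.72 ± 0.49, the prokineticin receptor Prokr2 by -2.92 ± 0.44 and angiotensinogen, Agt, by -2.50 ± 0.51. The postsynaptic scaffold Shank1 and the kinase gene Sbk3 were higher, by 1.83 ± 0.32 and 1.66 ± 0.37. For these 5 genes the lane 1 differences were -3.10, -3.09, -2.65, 1.78 and 1.23.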

How the data were processed

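RNA of 16 AE17 tumors was sequenced as single-end reads. The authors demultiplexed reads with bcl2fastq (version 1.8.4), aligned them with HISAT2 (version 2.0.4) to a mouse genome whose build name in the methods could not be matched to a release, and deposited whole-number counts per gene, which were used as deposited. Counting was not stated to use strand, so overlapping antisense genes cannot be separated.

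Genes passing edgeR's filterByExpr were tested with edgeR (4.0.16, R 4.3.3, TMM, quasi-likelihood test, Benjamini-Hochberg adjustment over 14668 genes) between the 8 IPL and 8 SC tumors, grouped by labels. The SE comes from the fitted log2 difference and the test statistic. On simulated counts the test recovered 86.9% of genes changed by 1 and 99% of genes changed by 2 on the log2 scale, with 2 false calls. Replicates differed beyond counting noise (chi-square per degree of freedom 5.51 or more in every pair), and 0 pairs were merged. The study's design gives 8 mice per group. Lanes were read from the column names.

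The text draws its named genes from up to 14 genes per direction with the largest change (mean of at least 1 CPM, called in all 16 fits with a tumor left out), 10 with the smallest p, called members of the gene lists (up to 5, otherwise the 4 with the smallest p) and, chosen after values were seen, other list members. The comparison, the gene lists and the tests were chosen with earlier results of these data known, and 6 lists (CD209, Klra, Klrb1, aryl hydrocarbon receptor, patterning and calcium channel genes) after the calls were seen. Alternatives were DESeq2 (1.42.0), limma (3.58.1), other scaling, filters and thresholds, a replicate block, lane, tissue marker scores as covariates, all 32 tumors and each tumor left out. Promoters and transcripts came from RefSeq (GRCm38.p6). Shared sequence is the share of 50-base windows of a gene's transcripts found in another gene. Some items are not reported here.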

Additional observations from a re-analysis of the deposited data

Results flagged for a closer look

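In 32 of 368 groups of 8 tumors, 2 for each of 184 named genes, the highest or lowest tumor lay apart from the other 7. Its gap to its neighbor was wider than Dixon's critical share of the whole range on the log2(CPM + 1) scale. Chance gives such a gap in about 1 in 20 groups, and genes that vary together are not independent.

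SC 6 accounted for 10 of these gaps and was the highest SC tumor in 8. Aqp1, the water channel, was at 582 CPM there against 246 CPM in the next tumor, Crocc2, a rootletin relative, at 15.1 against 3.02 CPM, and Notum, which inactivates Wnt ligands, at 29.4 against 14.1 CPM. The matrix protease Mmp11 was at 123 against 66.9 CPM and the protease inhibitor Timp2 at 1279 against 917 CPM. Ackr3, a chemokine scavenging receptor, was at 24.6 against 14.3 CPM, Alox5, the 5-lipoxygenase, at 14.8 against 10.6 CPM, and Alas2, the erythroid enzyme of heme synthesis, at 2.02 against 0.909 CPM. SC 6 was the lowest SC tumor for Tnnt2, at 1.90 against 4.82 CPM, and for Sesn2, a stress-induced sestrin, at 19 against 27.3 CPM.

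Among the other SC tumors, SC 8 was the highest for Tnfrsf4, the costimulatory receptor OX40, at 34.4 against 20.2 CPM. It was the lowest for the NK cell receptor genes Ncr1, at 2.49 against 6.08 CPM, and Klra9, at 0.474 against 1.95 CPM. SC 2 was the highest for Tnni1, at 2.82 against 1.30 CPM, and the lowest for Insig1, a regulator of sterol synthesis, at 55.7 against 60.6 CPM. SC 1 was the highest for Chac1, at 5.96 against 4.52 CPM, and SC 3 for the antibody gene Ighg2b, at 1.76 against 0.6 CPM.

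IPL 5 accounted for 6 gaps and was the highest IPL tumor in 4. These were the ferritin receptor Scara5, at 10.1 against 2.72 CPM, the secreted Wnt modulator Sfrp2, at 16.4 against 4.97 CPM, the BMP antagonist Chrdl1, at 6.04 against 2.11 CPM, and the metalloreductase Steap3, at 57.8 against 40 CPM. IPL 5 was the lowest for Agrn, agrin, at 217 against 274 CPM, and for Cacng8, at 0.598 against 1.35 CPM. IPL 8 was the highest for the NK receptor gene Klra7, at 3.39 against 1.97 CPM. It was the lowest for the mast cell receptor Mrgprb1, at 0.667 against 5.09 CPM, for the chemokine scavenger Ackr2, at 0.667 against 2.87 CPM, and for Notum, at 1.78 against 3.90 CPM. IPL 1 was the lowest for Lrrn2, a neuronal leucine-rich repeat protein, at 0.115 against 1.68 CPM, and the highest for Ptges, a prostaglandin E synthase, at 84.5 against 42.5 CPM, and for Gdf15, a stress-induced cytokine, at 7.57 against 4.39 CPM. IPL 3 was the lowest for Serpinh1, a collagen chaperone, at 900.3 against 1175 CPM, and the highest for the transcription factor Klf4, at 48.2 against 34.7 CPM. Some genes named only in this section stayed called in fewer than 16 of the 16 fits with a tumor left out. Ackr2 did so in 15, Chrdl1 and Gdf15 in 6, Serpinh1 in 5, Ackr3 and Klf4 in 4, and Alas2 in 3.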

How the results depend on the processing

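No named gene's difference changed direction under any alternative run, while the calls, more often lower than higher in most fits, were more often higher with limma-voom and in lane 1. Of 840 genes called (381 higher, 459 lower in IPL tumors), 829 were among the 834 called with DESeq2 size factors, 795 among the 828 called on total counts and 708 among the 731 called with at least 10 counts in every tumor. The count was 550 (217 higher, 333 lower) with no filter, 1768 (877 and 891) with DESeq2, 3959 (2072 and 1887) with limma-voom and sample weights, 1324 (594 and 730) in a fit of all 32 tumors, 75 (22 and 53) at an adjusted p under 0.01 and 246 (88 and 158) with a log2 difference of at least 1 in size. DESeq2 called 833 of the 840 and limma-voom 825. With lane as a factor edgeR called 1 gene (0 higher, 1 lower; 2362 at an unadjusted p under 0.05), and in lane 1 alone, with 3 IPL tumors, 14 (10 and 4). With tissue marker scores as covariates edgeR called 0 genes (0 higher, 0 lower), against 1086 at an unadjusted p under 0.05 there and 3696 without covariates, and all 840 kept their direction. Leaving out 1 tumor gave 316 to 2066 calls, with 119 to 1026 higher and 190 to 1040 lower. The count moved by over 1.5 times without IPL 2 (477), IPL 3 (502), IPL 4 (316), IPL 5 (1263), IPL 7 (321), IPL 8 (509), SC 1 (2066), SC 2 (472), SC 3 (1546), SC 5 (356), SC 6 (503) and SC 7 (396). Without IPL 5 and 8 together, an alternative chosen after seeing the data, it was 891, of which 618 were among the 840. Of the 184 named genes, 133 stayed called under the replicate block, 128 with no filter, 181 with DESeq2, 173 with limma-voom, 158 in the fit of all 32 tumors, 5 in lane 1 and 1 with lane as a factor. The cause of these changes was not tested. Same-numbered IPL and SC tumors share only a number: the correlation of their deviations ran from -0.26 to 0.29, was over 0.1 in 5 of 8 pairs and was the best with the own number for 2 of 8, and the replicate block gave 661 calls (324 higher, 337 lower), 529 of them among the 840. With 16013042 to 18161128 counts a tumor, genes of a few counts, such as most mesothelial genes, were tested only without the filter.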

Other observations

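Below the filter on low counts, further genes were called in the fit without it. Ngp, a granule protein of immature neutrophils, had 59 counts in IPL 8 and 16 in IPL 5, 0 to 6 in the other IPL tumors and 0 to 1 in SC tumors (edgeR adjusted p = 0.0448 without the filter). Ccl20, the ligand of CCR6, had 30 counts in IPL 5, 1 to 6 in the other IPL tumors and 0 to 2 in SC tumors (adjusted p = 0.0471). Ighg3, an antibody heavy chain gene, had 1397 counts in IPL 8, 560 in IPL 2 and 300 in IPL 5, and 0 to 4 in SC tumors (adjusted p = 0.0480). Calca, which encodes the neuropeptide CGRP and calcitonin, had 5 to 14 counts in IPL and 0 to 5 in SC tumors (adjusted p = 0.0138). Of the list members below the filter, Cilp2, a cartilage matrix gene, had 1 to 8 counts in IPL and 3 to 45 in SC tumors, lowest in SC 1 and SC 3 (adjusted p = 0.0390).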
